A study of Mus musculus with 23 samples.

Results

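The 44 genes described here are Myc, which encodes a transcription factor, and 43 genes whose products make ribosomes in the nucleolus. They were chosen by symbol among the 27207 genes of a count table, and all 44 passed the filter on low counts that left 11144 genes for testing. RNA was sequenced from mouse pancreatic ductal adenocarcinoma cells, in 23 libraries of 6 groups. KC cells came from a mouse with a Ptf1a Cre/+ driver, which is active in the pancreas. They were grown as a 2D culture (n = 6), as organoids in Matrigel to day 13 (n = 3), and as organoids in floating collagen gels to day 7 (n = 3) and day 13 (n = 5), all in batch 1. Batch 2 held day 13 collagen organoids only, of KC cells (n = 3) and of KPC cells (n = 3), whose donor mouse carried a Pdx1 Cre/+ driver, also active in the pancreas. All groups carried a pancreatic Cre, and each genotype was the cell line of 1 mouse, so that genotype and line cannot be told apart. Day 7 falls into the phase in which the branches extend and day 13 into that of lumen formation. The study describes the batch 1 organoid samples as individual experiments. For the 2D and the batch 2 samples the sources used here do not say whether they came from separate cultures, so that p-values may there measure only technical spread. In bulk RNA, fewer cells of a kind and less RNA per cell cannot be told apart.

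Ribosome production starts with the transcription of ribosomal DNA by RNA polymerase I, after which small nucleolar ribonucleoproteins (snoRNPs) modify and help to cut the precursor RNA, and assembly factors build the small and the large subunit around it. Myc is known as a transcriptional activator of many of these genes, binding with its partner Max to the E-box CACGTG, while the MXD proteins and Mnt compete for Max. Growing and dividing cells, pancreatic tumour cells among them, make many ribosomes.

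The E-box was searched for in promoter windows of RefSeq (build GRCm38.p6) that reach from 250 bases before to 50 bases after a gene's start. An entry was found for 37 of the 44 genes, and there was none for Myc, Gnl2, Fbl, Bop1, Rrp12, Tcof1 and Npm1. CACGTG, which reads the same on both strands, stood in 8 of the 37 windows (21.6%), those of Imp4, Nop2, Utp20, Pes1, Pno1, Mybbp1a, Tsr1 and Wdr43, against 8.09% of all 27025 genes with a window. All 37 genes passed the filter on low counts, whereas the 27025 were not chosen by expression, so the shares are not on a like basis. A match is a description of the sequence and not a site of binding. The promoters of 4 of the 8 genes are printed 5′ to 3′ on the gene's strand with CACGTG in capitals, because their transcripts behaved differently: Mybbp1a was among the 3 genes that differed most between KPC and KC organoids, Utp20 among the 3 that were lowest in 2D cells against day 7, Nop2 was higher in both the day 7 and the KPC comparison, and Tsr1 passed the test in no comparison. The windows lie at chr11:72441077-72441376 (plus strand), chr10:88826765-88827064 (minus strand), chr6:125131633-125131932 (plus strand) and chr11:74897830-74898129 (plus strand).
Mybbp1a: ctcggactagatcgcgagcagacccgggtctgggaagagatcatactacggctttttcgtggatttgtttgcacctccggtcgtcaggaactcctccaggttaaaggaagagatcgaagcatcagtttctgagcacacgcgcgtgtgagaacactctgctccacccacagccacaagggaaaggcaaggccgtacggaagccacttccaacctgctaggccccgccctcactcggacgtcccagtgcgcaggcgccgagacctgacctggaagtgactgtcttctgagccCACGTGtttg
Utp20: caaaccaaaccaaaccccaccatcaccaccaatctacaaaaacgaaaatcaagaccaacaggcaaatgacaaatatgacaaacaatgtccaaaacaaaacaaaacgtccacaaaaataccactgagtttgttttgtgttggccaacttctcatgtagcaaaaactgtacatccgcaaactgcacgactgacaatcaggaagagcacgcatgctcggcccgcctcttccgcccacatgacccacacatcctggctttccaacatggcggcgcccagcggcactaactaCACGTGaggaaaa
Nop2: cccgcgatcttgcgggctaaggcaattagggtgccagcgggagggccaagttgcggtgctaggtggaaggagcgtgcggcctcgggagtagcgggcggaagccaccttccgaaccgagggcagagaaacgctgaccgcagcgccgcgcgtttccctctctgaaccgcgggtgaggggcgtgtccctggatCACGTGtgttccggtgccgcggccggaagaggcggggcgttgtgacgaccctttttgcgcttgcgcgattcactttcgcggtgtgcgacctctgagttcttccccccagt
Tsr1: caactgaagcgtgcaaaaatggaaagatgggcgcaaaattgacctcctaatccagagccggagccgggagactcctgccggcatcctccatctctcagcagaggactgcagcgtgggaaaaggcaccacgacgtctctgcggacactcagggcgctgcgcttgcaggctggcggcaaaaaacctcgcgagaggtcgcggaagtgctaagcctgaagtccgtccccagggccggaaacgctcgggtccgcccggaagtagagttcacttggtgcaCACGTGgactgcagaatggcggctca
The motif began 60 bases before the start in Nop2 and at bases 41, 38 and 25 after it in Mybbp1a, Utp20 and Tsr1. The 8 genes with the motif had a median log2 fold change between day 7 and day 13 of 1.01, and the 29 without it had one of 0.98.

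Total counts of unique molecules ran from 1221451 to 2471058 per library, and a count of 0 allows up to 3 counts, or 1.16 to 3.202 CPM. CPM, the unit of all levels here, are counts scaled to a common library size with TMM factors. The 44 genes together held 4514 to 14797 counts per library. The 2D libraries fell apart, replicates 1 to 3 from replicates 4 to 6. Between these sets the counts of a pair of libraries differed by a chi-square per degree of freedom of 19.2 to 30.6, and within them by 1.25 to 2.602, where sampling noise alone gives about 1. In replicates 1 to 3 the cytosolic ribosomal protein genes summed to 277487 to 299061 CPM and in replicates 4 to 6 to 112393 to 125354 CPM, and the mitochondrially encoded genes to 64718 to 75917 and 24233 to 28379 CPM. Counts of genes called with 2D cells are therefore also given for each set. The batch 1 day 13 collagen libraries fell apart too, less widely, replicates 1 to 3 from replicates 4 and 5. Pairs between these sets differed by 4.39 to 6.43 and pairs within them by 2.0 to 2.98. Proliferation markers summed to 842 to 953 and 645 to 661 CPM, and mitochondrially encoded genes to 28635 to 34979 and 42758 to 45115 CPM. Counts of called genes were not taken separately for these sets. The keratin genes of ductal cells (Krt7, Krt8, Krt18 and Krt19) had at least 939 counts in every library. Of the other 4 epithelial markers, Cdh1 and Sox9 had at least 111 counts, Epcam ranged from 12 to 419 counts (4.62 to 189.8 CPM) and Cldn4 had at most 8 counts. The 4 endothelial markers stayed at or below 1.99 CPM and Cd68, the highest of 4 immune markers, at or below 35.97 CPM. Exons of 23 of the 44 genes overlap an exon of another gene in GENCODE M21, for 20 of them on the opposite strand, such as Bysl with Ccnd3, Nhp2 with Rmnd5b, Heatr1 with Lgals8 and Mybbp1a with Spns2, and for 5 (Nop56, Nop58, Ncl, Gnl3 and Ppan) on the same strand. Whether the counting used strand is not given in the sources used here, so reads of such neighbours may be shared. Npm1 has processed pseudogenes, which makes its counts less certain.

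As a set, the 44 genes were highest in day 7 collagen organoids and lowest in day 13 collagen organoids of KC cells. They took 0.557 to 0.614% of all counts in the day 7 libraries, 0.355 to 0.491% in 2D cells, 0.328 to 0.367% in Matrigel and 0.287 to 0.35% in collagen at day 13 in batch 1. In batch 2 the KPC libraries had 0.431 to 0.482% and the KC libraries 0.299 to 0.325%. A mean z score was formed by scaling the log2 CPM of each gene over the 23 libraries and averaging the 44 genes. It was 1.08, 1.2 and 1.43 in the day 7 libraries. In 2D cells it was −0.13 to −0.01 in replicates 1 to 3 and 0.44 to 0.56 in replicates 4 to 6. Matrigel organoids stood at −0.34, −0.35 and −0.41 and collagen organoids of day 13 in batch 1 at −0.38, −0.47, −0.56, −0.70 and −0.78. The score of KC organoids in batch 2 was −0.72, −0.80 and −0.57, that of KPC organoids 0.52, 0.29 and 0.18. Day 7 lay above every other library, and KPC above the KC libraries of its batch without overlap. Matrigel and day 13 collagen organoids of batch 1 overlapped in score, as did KPC with 2D replicates 4 to 6. Gene by gene, 33 of the 44 had their highest group mean at day 7, 6 in KPC, 4 in 2D and 1 in the KC organoids of batch 2. The shares of all tested genes with their highest mean in each group were not counted, so these numbers do not set the 44 genes apart.

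**Figure D1:**
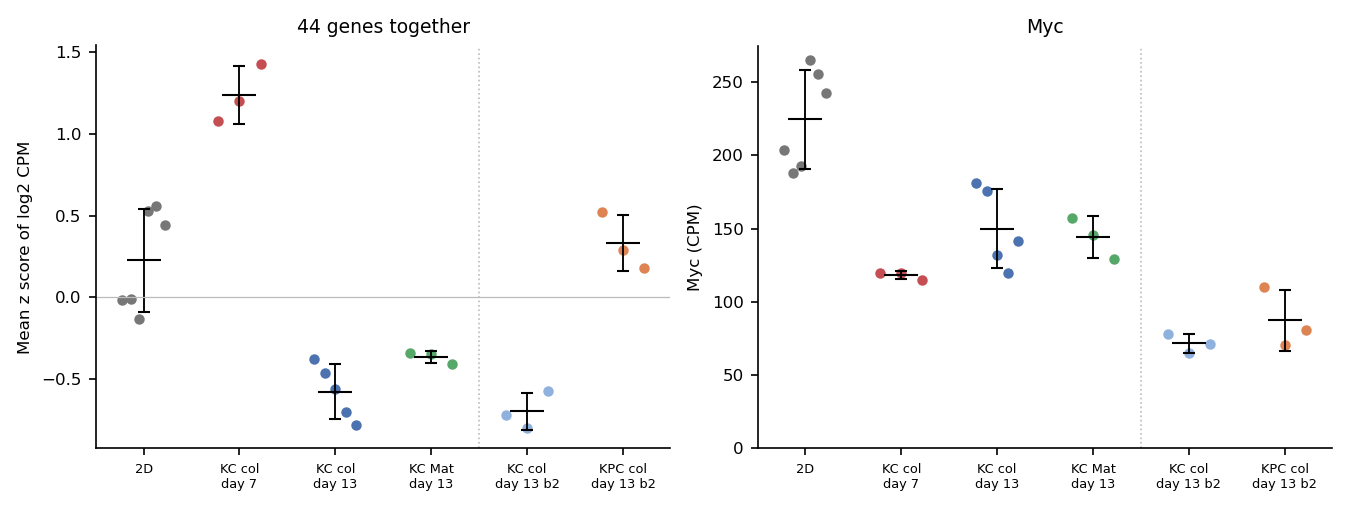
Each point is 1 library, the horizontal bar the group mean and the vertical bar 1 SD, with batch 1 left and batch 2 (b2) right of the dotted line. The left panel plots the mean z score over the 44 genes, where day 7 is highest at 1.08 to 1.43, and the right panel plots Myc in CPM, where day 7 is at 115 to 119.9 and 2D cells at 188 to 265.

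Myc (chr15:61985391-61990374, plus strand, GRCm38) did not follow the genes of the set. In batch 1 it was at 188 to 265 (median 223) CPM in 2D cells, at 181, 175, 132, 119.7 and 142 in day 13 collagen, at 158, 146 and 129 in Matrigel and at 119.9, 119.8 and 115 at day 7. It was thus highest in 2D cells, without overlap with any other group, and day 7 was the lowest group of batch 1, with libraries that overlapped those of day 13 collagen. Its log2 fold change in 2D cells was 0.93 ± 0.15 SE against day 7 (adjusted p = 2.46e-05) and 0.59 ± 0.13 SE against day 13 (adjusted p = 0.000517), and both calls held with either set of 2D libraries. Day 7 was lower than day 13, with a log2 fold change of −0.34 ± 0.15 SE (adjusted p = 0.065). This call was lost when day 7 replicate 2 or 3, or day 13 replicate 1 or 2, was left out (adjusted p = 0.111, 0.151, 0.134 and 0.125), and with the KC organoids of both batches pooled the log2 fold change was −0.04 (adjusted p = 0.911). In Matrigel Myc had a log2 fold change of −0.06 ± 0.15 SE against collagen (adjusted p = 0.895). In batch 2 it was at 78.3, 65.2 and 71.5 CPM in KC and 110.4, 70.8 and 80.8 CPM in KPC organoids, which overlapped (log2 fold change 0.28 ± 0.18 SE, adjusted p = 0.35).

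At day 7, when branches extend, 39 of the 44 genes were higher than at day 13 and 1, Myc, was lower, while Nop10, Gnl2, Ddx10 and Tsr1 did not pass the test. Over all tested genes 28.1% were called higher and 27.1% lower in this comparison. The median log2 fold change was 1.0 over the 44 genes and 0.01 over all tested genes. In 39 genes every day 7 library lay above every day 13 library, and in 0 every one lay below. Of the 11144 tested genes this held for 2829 above and 2557 below. All 3 genes of RNA polymerase I transcription, all 4 of the box C/D snoRNP, 3 of 4 of the box H/ACA snoRNP, all 5 nucleolar scaffold and chaperone genes, 10 of 12 genes for the small subunit and 14 of 15 for the large subunit were higher. Both groups came from batch 1, and both were freed from their gels by collagenase. The 17 proliferation markers moved with the set: all 17 were higher at day 7, with a sum of 2515 to 2634 CPM against 645 to 953 CPM at day 13, and their part in the result was not tested. Of the immune markers Cd68 was lower at day 7 (log2 fold change −1.8 ± 0.34 SE), while Ptprc, Lyz2 and Cd79a had at most 3 counts in every library. The 4 immune markers summed to 3.39 to 5.85 CPM at day 7 and 11.98 to 21.4 CPM at day 13. The acinar marker Cela1 was lower as well (log2 fold change −1.56 ± 0.39 SE), Prss2, the other acinar marker, had at most 3 counts, and none of the 4 tested fibroblast markers passed the test. Of 7 tested epithelial markers, Krt8 (0.43 ± 0.17 SE) and Krt18 (0.31 ± 0.12 SE) were higher at day 7 and Epcam (−3.27 ± 0.27 SE), Sox9 (−1.21 ± 0.26 SE) and Cdh1 (−0.30 ± 0.15 SE) lower, and the whole list summed to 11226 to 12658 CPM at day 7 and 9591 to 11593 CPM at day 13. The part of these markers in the result was not tested.

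**Figure D2:**
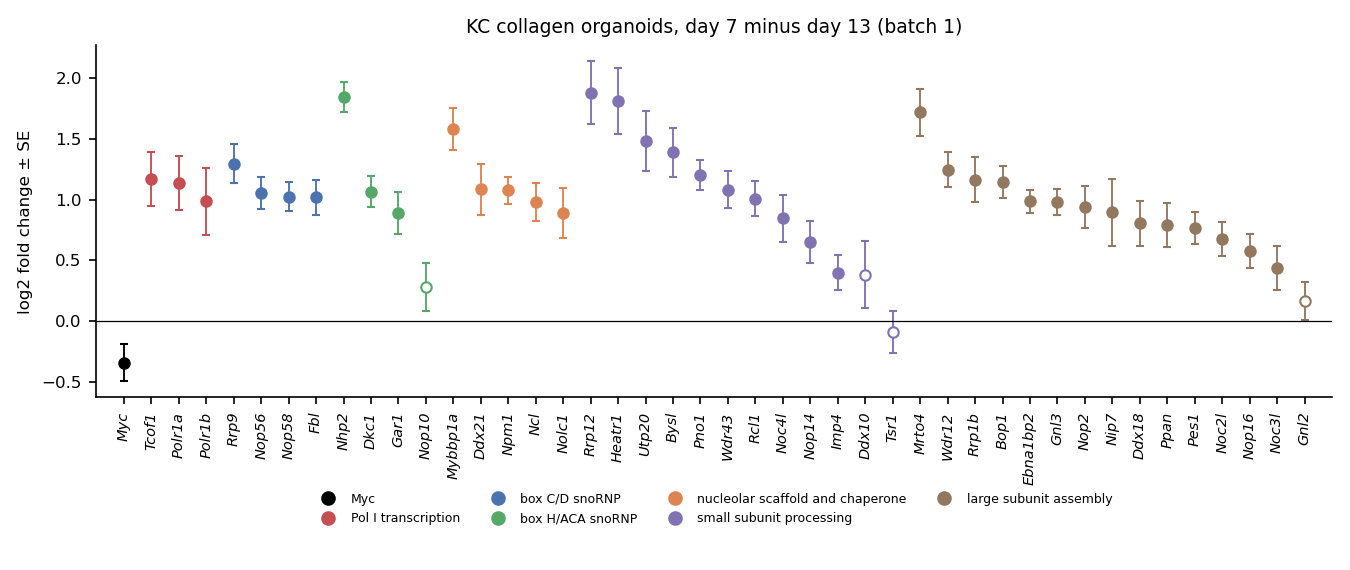
Log2 fold change of each of the 44 genes in collagen organoids at day 7 (n = 3) against day 13 (n = 5) of batch 1, with 1 SE, ordered by role. Filled points passed the test (adjusted p under 0.1), open points did not. The called genes other than Myc run from 0.40 (Imp4) to 1.88 (Rrp12), and Myc is at −0.34.

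Among the genes of RNA polymerase I transcription, Polr1a (chr6:71909053-71984935) encodes the largest subunit of the enzyme. Its level was 16.6, 19.3 and 28.4 CPM at day 7 and 8.295, 11.4, 8.09, 13.8 and 6.79 CPM at day 13, a log2 fold change of 1.13 ± 0.22 SE (adjusted p = 0.000148). Polr1b, for the other large subunit, stood at 0.98 and Tcof1, for the nucleolar protein treacle that works with the enzyme, at 1.17 on the log2 scale. These are low counts, Polr1b with 1 to 37 per library over the series. The box C/D snoRNP genes were all called: Fbl, the RNA methyltransferase fibrillarin, differed by 1.02 ± 0.14 SE, its partners Nop56 and Nop58 by 1.05 and 1.02, and Rrp9, a protein of the U3 snoRNP, by 1.29. Fbl was at 114, 100.1 and 106 CPM at day 7 and 60.8, 54.8, 54.7, 48.5 and 43.9 CPM at day 13, which did not overlap.

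The box H/ACA snoRNP, which turns uridines of ribosomal RNA into pseudouridine, was uneven. Nhp2 (chr11:51619735-51623714) was at 599, 524 and 565 CPM at day 7 and at 177, 183, 147, 136 and 140.5 CPM at day 13 (log2 fold change 1.84 ± 0.12 SE, adjusted p = 8.72e-12), one of the 3 highest differences of the set. The pseudouridine synthase gene Dkc1 and the subunit gene Gar1 differed by 1.06 ± 0.13 and 0.89 ± 0.17 SE. Nop10, which encodes the small subunit of the same particle, had 348, 324 and 312 CPM at day 7 and 292, 287, 268, 264 and 240.2 at day 13 and was not called (log2 fold change 0.28 ± 0.20 SE, adjusted p = 0.261), although its libraries did not overlap. The spread of Nop10 between the 2D replicates, at 380.5 to 849 (median 581) CPM, enters the error of this fit.

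Of the nucleolar scaffold and chaperone genes, Mybbp1a (chr11:72441355-72451768), for a nucleolar protein that binds RNA polymerase I, differed most. It had 79.4, 119 and 133 CPM at day 7 and 35.02, 43.9, 35.2, 37.4 and 33.4 CPM at day 13 (log2 fold change 1.58 ± 0.17 SE, adjusted p = 3.29e-08). The abundant chaperone gene Npm1 (nucleophosmin) had 953, 923 and 986 CPM at day 7 and 516, 456, 447, 427 and 418 CPM at day 13, and Ncl (nucleolin) 578, 724 and 736 against 421, 321, 341, 339.6 and 301 CPM. Their log2 fold changes were 1.08 ± 0.11 and 0.98 ± 0.16 SE. Ddx21, an RNA helicase of the nucleolus, differed by 1.09 and Nolc1, a chaperone of snoRNPs, by 0.89 with 1 day 13 library inside the range of day 7. Without Ncl and Npm1 the other 42 genes still took 0.405 to 0.438% of counts at day 7 against 0.212 to 0.252% at day 13.

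The genes for the small subunit spanned the widest range. Rrp12 (chr19:41862851-41896173), for a factor in the maturation and export of subunit precursors, showed the highest difference of the 44 genes, with 19.01, 21.2 and 19.9 CPM at day 7 and 5.07, 8.58, 6.18, 3.56 and 3.66 CPM at day 13 (log2 fold change 1.88 ± 0.26 SE, adjusted p = 1.41e-06). Its counts were 39 to 55 per day 7 library and 7 to 18 per day 13 library. Heatr1 (chr13:12395027-12440289), for a large protein of the small subunit processome, was at 18.5, 18.5 and 30.5 against 4.15, 8.103, 6.66, 5.79 and 7.31 CPM (log2 fold change 1.81 ± 0.27 SE, adjusted p = 4.87e-06). Both were low genes whose day 7 and day 13 libraries did not overlap. Utp20 and Wdr43, of the same processome, differed by 1.48 and 1.08, and Bysl and Pno1, which act late in the maturation of the subunit, by 1.39 and 1.2. Rcl1, linked to the cut that frees the small subunit RNA, differed by 1.01, Noc4l and Nop14, which form a complex, by 0.84 and 0.65, and Imp4, a U3 snoRNP protein, by 0.40. Tsr1, needed for late steps of the subunit, had 33.1, 28.9 and 36.4 CPM at day 7 and 35.9, 32.4, 32.3, 36.1 and 37.6 CPM at day 13, a log2 fold change of −0.09 ± 0.17 SE (adjusted p = 0.696). The RNA helicase gene Ddx10 had one of 0.38 ± 0.28 SE (adjusted p = 0.267).

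For the large subunit, Mrto4, whose product resembles the stalk protein P0, was at 89.7, 75.5 and 91.1 CPM at day 7 and 26.7, 28.1, 28.5, 24.9 and 20.9 CPM at day 13 (log2 fold change 1.72 ± 0.19 SE, adjusted p = 7.39e-08). The genes of the PeBoW complex, which processes the precursor of the large subunit RNAs, differed by 1.25 (Wdr12), 1.15 (Bop1) and 0.76 (Pes1). All 3 were called, and their day 7 libraries lay above those of day 13. The RNA methyltransferase gene Nop2 differed by 0.94 ± 0.17 SE and Gnl3, for the GTPase nucleostemin, by 0.98 ± 0.11 SE. Its relative Gnl2 was at 39.97, 40.8 and 49.2 CPM against 35.5, 37.2, 45.7, 33.4 and 41.8 CPM and did not pass the test (log2 fold change 0.17 ± 0.16 SE, adjusted p = 0.401). The assembly factor genes Noc3l, Nop16, Noc2l, Ppan, Ddx18, Nip7, Ebna1bp2 and Rrp1b lay between 0.43 and 1.16 on the log2 scale, and all 8 were called.

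**Figure D3:**
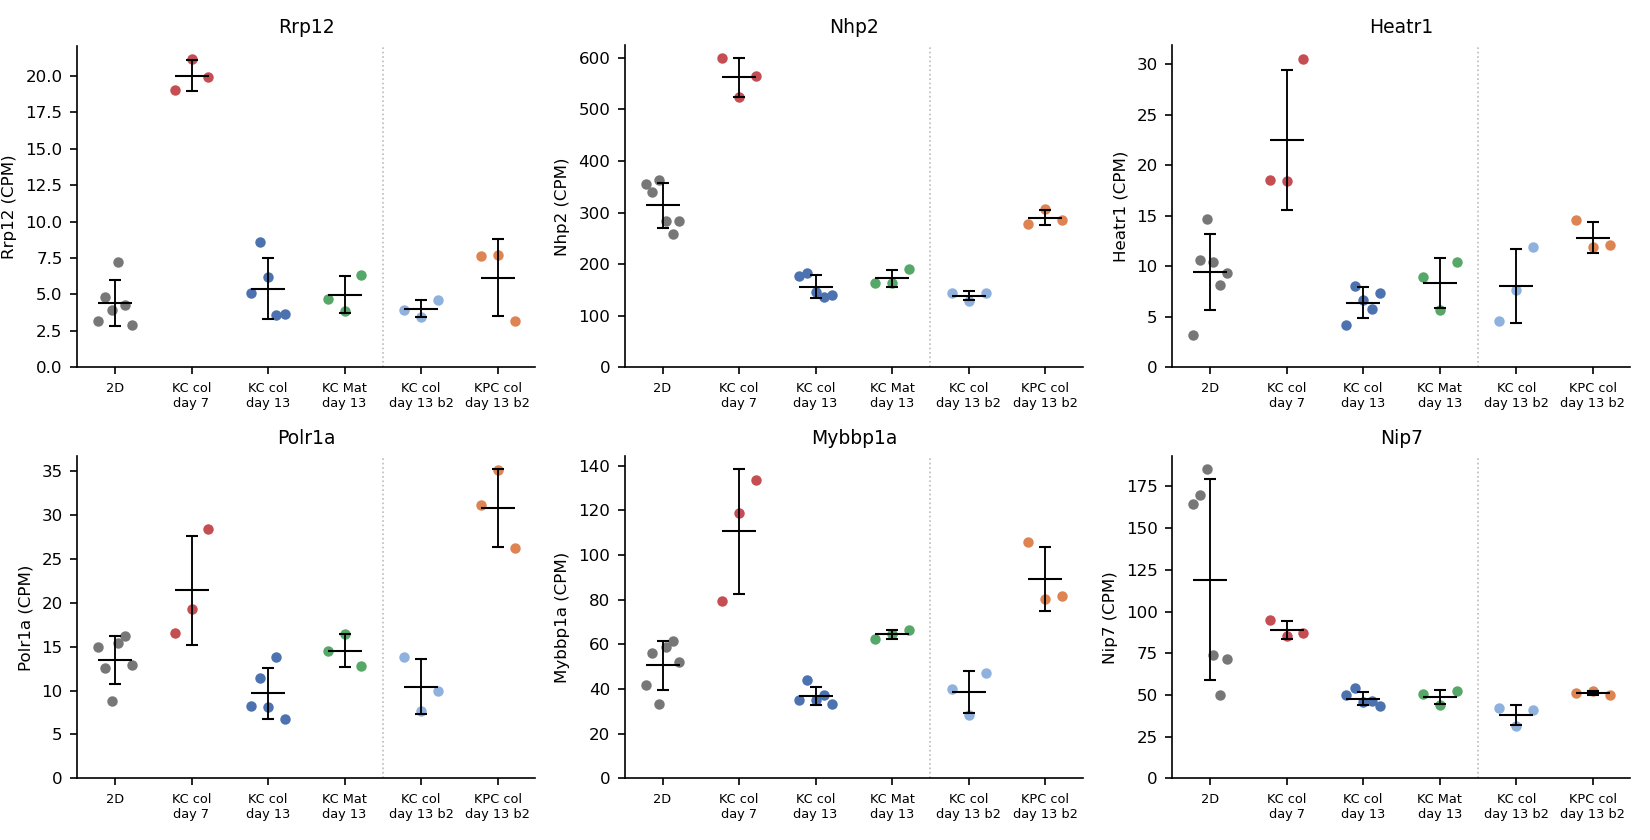
Levels in CPM of 6 of the 44 genes in each of the 23 libraries, with the group mean and 1 SD, batch 1 left and batch 2 (b2) right of the dotted line. Rrp12, Nhp2, Heatr1 and Mybbp1a are highest at day 7, Polr1a reaches 26.2 to 35.1 in KPC, and Nip7 shows the 2D replicates apart, at 50.1 to 185.

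Genes of the same pathway outside the set moved with it. Of 94 other tested ribosome biogenesis genes, 69 were higher and 3 lower at day 7 (median log2 fold change 0.61), where 28.1% and 27.1% of all genes were called. Among them were Nol10 (1.66 ± 0.26 SE) and the exosome gene Exosc8 (1.32 ± 0.14 SE) on the higher side, and Utp11 (−0.58 ± 0.12 SE) and Sbds (−0.62 ± 0.14 SE) on the lower side. The other RNA polymerase I genes had 6 of 13 higher and none lower, with Polr1e (1.48 ± 0.25 SE) and the initiation factor Rrn3 (1.07 ± 0.19 SE) highest. Cytosolic ribosomal protein genes had 45 higher and 1 lower of 78 (median 0.65), and snoRNA host genes 6 higher and none lower of 14 (median 0.58). Of 48 known Myc targets with other functions, 41 were higher and 1 was lower, with a median of 0.97. The amino acid transporter gene Slc7a5 (2.34 ± 0.16 SE) and the pyrimidine synthesis gene Cad (2.08 ± 0.25 SE) led them, and the cyclin gene Ccnd2 (−1.47 ± 0.17 SE) was the lower one.

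The network around Myc differed as well between day 7 and day 13, with 8 of 13 tested genes lower and 2 higher, where 27.1% and 28.1% of all genes were called. Max, the partner of both Myc and its competitors, was at 91.6, 83.2 and 75.8 CPM at day 7 and 60.8, 72.9, 72.8, 72.6 and 76.2 CPM at day 13 and was not called (log2 fold change 0.23 ± 0.13 SE, adjusted p = 0.15). The competitors Mxd1, Mxd4, Mxi1 and Mnt were lower at day 7. Mxd1 was at 13.6, 12.3 and 10.6 CPM against 38.7, 49.1, 40.9, 89.03 and 78.9 CPM at day 13 (log2 fold change −2.28 ± 0.27 SE, adjusted p = 1.26e-07). Mxd4 was at 21.4, 16.6 and 13.98 against 54.4, 64.8, 78.01, 72.1 and 67.4 CPM (−1.96 ± 0.16 SE, adjusted p = 1.82e-10) and Mxi1 at 24.4, 28.5 and 19.1 against 73.3, 70.1, 66.6, 54.8 and 61.1 CPM (−1.44 ± 0.18 SE, adjusted p = 2.64e-07). None of the libraries of these 3 genes overlapped between the days. Mnt differed by −0.51 ± 0.21 SE (adjusted p = 0.0449), whereas Mxd3, a family member known from dividing cells, was higher by 0.45 ± 0.21 SE (adjusted p = 0.0775). Fbxw7, for the ubiquitin ligase subunit that targets Myc protein for degradation, was lower, with a log2 fold change of −0.52 ± 0.19 SE (adjusted p = 0.0281). Mlx and Mlxip, of the branch of the network that responds to glucose, were lower, with log2 fold changes of −0.59 ± 0.22 and −0.76 ± 0.30 SE. Pvt1, the long noncoding RNA next to Myc, was higher by 0.77 ± 0.38 SE (adjusted p = 0.0994). The Myc paralog Mycn was at 0.975, 0.385 and 0.424 CPM at day 7, at or below 3 counts per library, and at 5.53, 4.77, 5.71, 2.23 and 0.522 CPM at day 13. Zbtb17 and Mga did not pass the test, with log2 fold changes of −0.10 and −0.36.

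**Figure D4:**
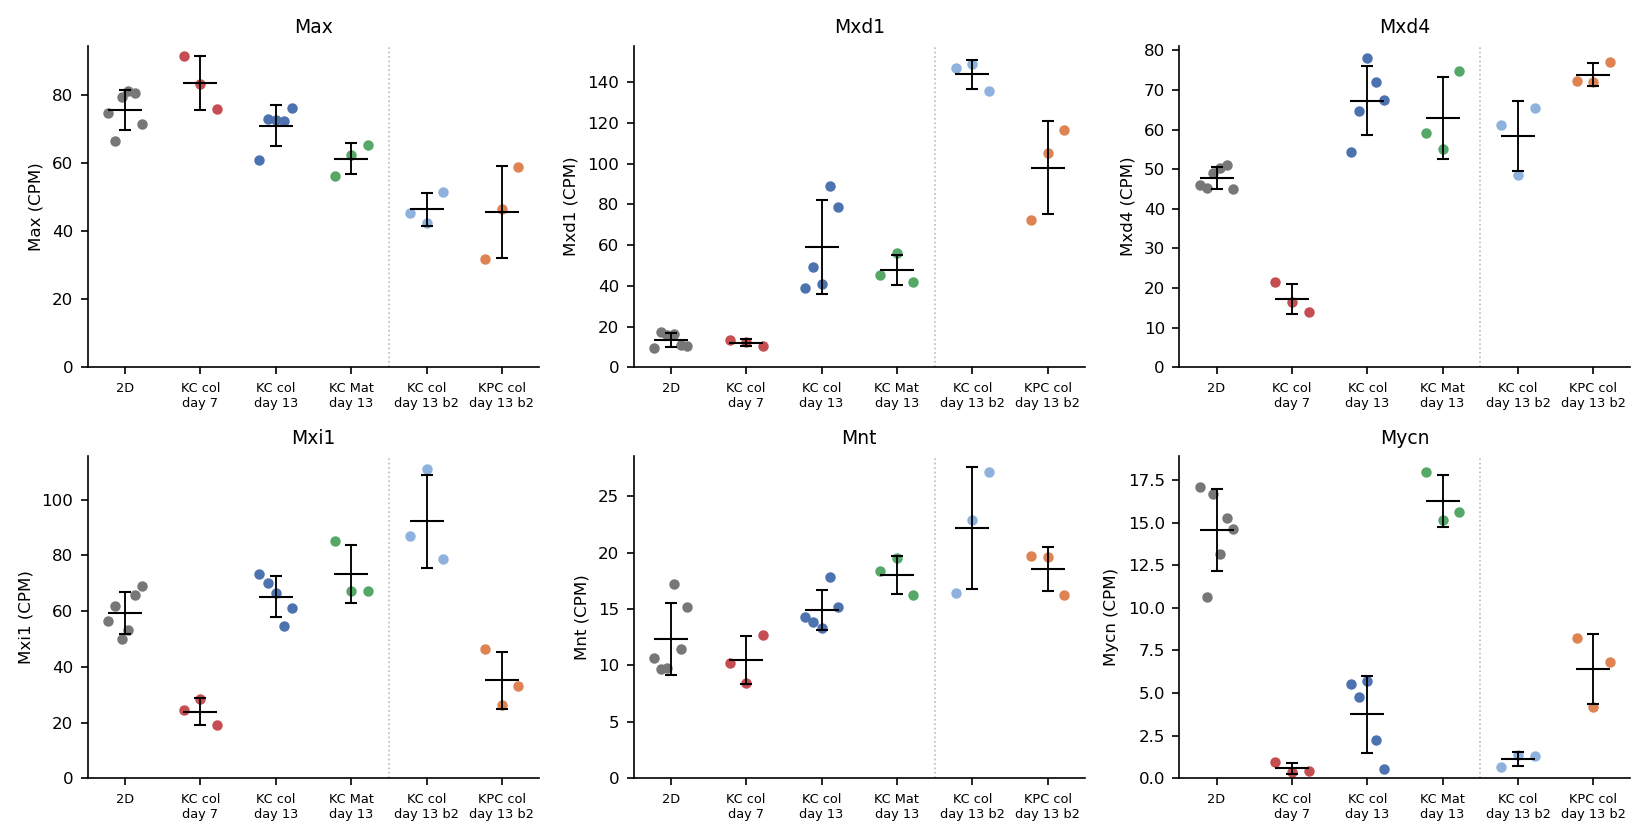
Levels in CPM of Max, of its partners Mxd1, Mxd4, Mxi1 and Mnt, and of the Myc paralog Mycn in each of the 23 libraries, with the group mean and 1 SD, batch 1 left and batch 2 (b2) right of the dotted line. Mxd4 is lowest at day 7 (13.98 to 21.4 CPM), Mxd1 is low at day 7 and in 2D cells, and Mycn is highest in 2D cells and Matrigel.

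Between Matrigel and collagen organoids of day 13, few of the 44 genes were called, at a share near that of all genes. Of the 44, 2 were higher in Matrigel and none was lower, against 6.62% and 6.29% of all tested genes, and the median log2 fold change was 0.08 against −0.01 over all genes. With DESeq2 the counts were 2 and 0 as well. At an unadjusted p under 0.05, 3 were higher and 0 lower. Mybbp1a was at 62.6, 64.6 and 66.6 CPM in Matrigel and 35.02, 43.9, 35.2, 37.4 and 33.4 CPM in collagen (log2 fold change 0.80 ± 0.18 SE, adjusted p = 0.00395), with no overlap. Polr1b was at 10.6, 10.4 and 12.2 against 4.15, 6.197, 7.61, 7.57 and 5.74 CPM (0.80 ± 0.28 SE, adjusted p = 0.0785). This call was lost with any of the 3 Matrigel libraries, or day 13 replicate 1, 2 or 5, left out, with adjusted p from 0.114 to 0.218. The other 42 genes lay between −0.28 (Tsr1) and 0.58 (Polr1a), and a p above the threshold does not show that they were alike. All 3 genes of RNA polymerase I transcription had values above 0, with Tcof1 at 0.46 ± 0.24 and Polr1a at 0.58 ± 0.24 SE, neither called. Among the markers, Cd68 was higher in Matrigel (1.02 ± 0.25 SE), with immune sums of 30.1 to 35.97 CPM against 11.98 to 21.4 CPM. Of 7 epithelial markers Epcam (1.56 ± 0.18 SE), Krt7 (0.64 ± 0.15 SE) and Cdh1 (0.40 ± 0.14 SE) were higher and none was lower, and no proliferation, acinar or fibroblast marker was called. The part of these markers was not tested. In the Myc network Mycn was higher in Matrigel, at 17.99, 15.2 and 15.6 CPM (log2 fold change 2.09 ± 0.31 SE, adjusted p = 3.56e-05), and Mlx was lower (−0.62 ± 0.22 SE, adjusted p = 0.0793).

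2D cells lay between the day 7 and day 13 organoids in most of these genes. Against day 7, 28 of the 44 were lower in 2D cells and 2 were higher, where 24.7% and 26.5% of all genes were called, with a median log2 fold change of −0.51 against 0.02 over all genes. Against day 13 collagen, 30 were higher and none lower, where 26.3% and 23.3% of all genes were called, with a median of 0.47 against 0.01. DESeq2 called 29 higher and none lower, and at an unadjusted p under 0.05 edgeR had 0 lower. With library size as the only scaling, 14 were higher than at day 13, and the median of all genes moved to −0.20. The order day 7, 2D, then both day 13 groups held for the means of 29 of the 44 genes. How many of all tested genes had this order was not counted. With 2D replicates 1 to 3 alone, 32 were lower and 4 higher than day 7, and 18 higher and 1 lower than day 13. With replicates 4 to 6 alone the counts were 24 and 3 against day 7 and 35 and 0 against day 13. These counts come from separate fits, and the shares of all genes given above belong to the fit with all 2D libraries. 2D cells were lysed directly and organoids only after digestion of the gel, and culture form and handling cannot be told apart. The proliferation markers were lower in 2D cells than at day 7 (17 of 17) and higher than at day 13 (16 of 17). Against day 7, Cd68 (0.97 ± 0.37 SE), Cela1 (1.73 ± 0.39 SE) and 1 of 4 fibroblast markers, Dcn (0.83 ± 0.33 SE), were higher in 2D cells, and of 7 epithelial markers 2 were higher and 4 lower. Against day 13, Cd68 was lower (−0.83 ± 0.27 SE), Col1a2 (0.71 ± 0.27 SE) and Acta2 (0.71 ± 0.33 SE) of 4 fibroblast markers were higher, and of 7 epithelial markers 1 was higher and 4 were lower. In 2D cells the immune markers summed to 4.08 to 18.1 CPM and the epithelial markers to 7118 to 10251 CPM. The fibroblast markers summed to 67.3 to 208 CPM in 2D cells, 59.7 to 101 CPM at day 7 and 54.4 to 112 CPM at day 13. The part of these markers in the result was not tested.

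Rrp12 differed most between 2D cells and day 7, at 2.93 to 7.26 (median 4.11) CPM in 2D cells (log2 fold change −2.11 ± 0.27 SE, adjusted p = 1.12e-06). It was followed by Utp20, at 3.202 to 11.9 (median 9.61) CPM in 2D cells and 19.5, 22.7 and 34.3 CPM at day 7 (−1.43 ± 0.25 SE, adjusted p = 5.17e-05), and Bysl, at 8.82 to 21.96 (median 16.3) and 40.9, 34.3 and 50 CPM (−1.27 ± 0.20 SE, adjusted p = 1.59e-05). None of these 3 passed the test between 2D cells and day 13, where the log2 fold changes were −0.23, 0.05 and 0.12. Myc and Nop10 were the 2 genes higher in 2D cells than at day 7, Nop10 by 0.84 ± 0.20 SE (adjusted p = 0.00154). Against day 13 the highest were Nip7, which acts late in the large subunit (1.26 ± 0.24 SE, adjusted p = 0.000174), Mrto4 (1.25 ± 0.18 SE, adjusted p = 5.63e-06) and Nop10 (1.12 ± 0.17 SE, adjusted p = 1.22e-05). Mrto4 was at 42.7 to 90.6 (median 60.1) CPM in 2D cells. The size of the Nip7 and Nop10 differences rested largely on 2D replicates 1 to 3, that of Mrto4 less so. In replicates 1 to 3, Nip7 was at 164, 169.7 and 185 CPM and Nop10 at 741, 777 and 849 CPM. In replicates 4 to 6 they were at 73.98, 50.1 and 71.4 and at 381, 380.5 and 422 CPM. With replicates 4 to 6 alone the log2 fold changes against day 13 were 0.41 (Nip7), 0.85 (Mrto4) and 0.51 (Nop10), all still called, and that of Nop10 against day 7 was 0.29. Of the 44 genes, 7 (Nop10, Nhp2, Npm1, Pno1, Nop16, Mrto4 and Nip7) had all of replicates 1 to 3 above all of replicates 4 to 6, and 21, Myc, Ncl and Fbl among them, had them below. The share of all tested genes that fell apart in this way was not counted, so these counts do not set the 44 genes apart.

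In batch 2, 21 of the 44 genes were higher in KPC than in KC organoids of day 13 and none was lower. Over all tested genes 9.57% were called higher and 10.4% lower. The median log2 fold change was 0.53, against 0.01 over all genes, and 43 of 44 values were above 0, Tsr1 being the exception. DESeq2 called 20 higher and none lower, and at an unadjusted p under 0.05 edgeR had 0 lower. The calls fell on 1 of 3 genes of RNA polymerase I transcription, 2 of 4 of the box C/D and 3 of 4 of the box H/ACA snoRNP, 3 of 5 scaffold and chaperone genes, 4 of 12 for the small and 8 of 15 for the large subunit. With 1 library left out, 16 to 19 genes were called higher, and without KPC replicate 1, the KPC library with the highest score, the median was 0.40. Proliferation markers moved in the same direction, 9 of 17 higher and none lower, with sums of 959 to 1019 CPM in KPC and 639.8 to 684 CPM in KC. Cd68 was lower in KPC (log2 fold change −1.32 ± 0.37 SE), with sums of the immune markers of 5.35 to 11.5 CPM in KPC and 18.5 to 21.1 CPM in KC. Of 7 epithelial markers Epcam was higher (0.59 ± 0.20 SE) and Krt19 lower (−0.73 ± 0.17 SE), and no fibroblast or acinar marker was called. The part of these markers in the result was not tested.

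**Figure D5:**
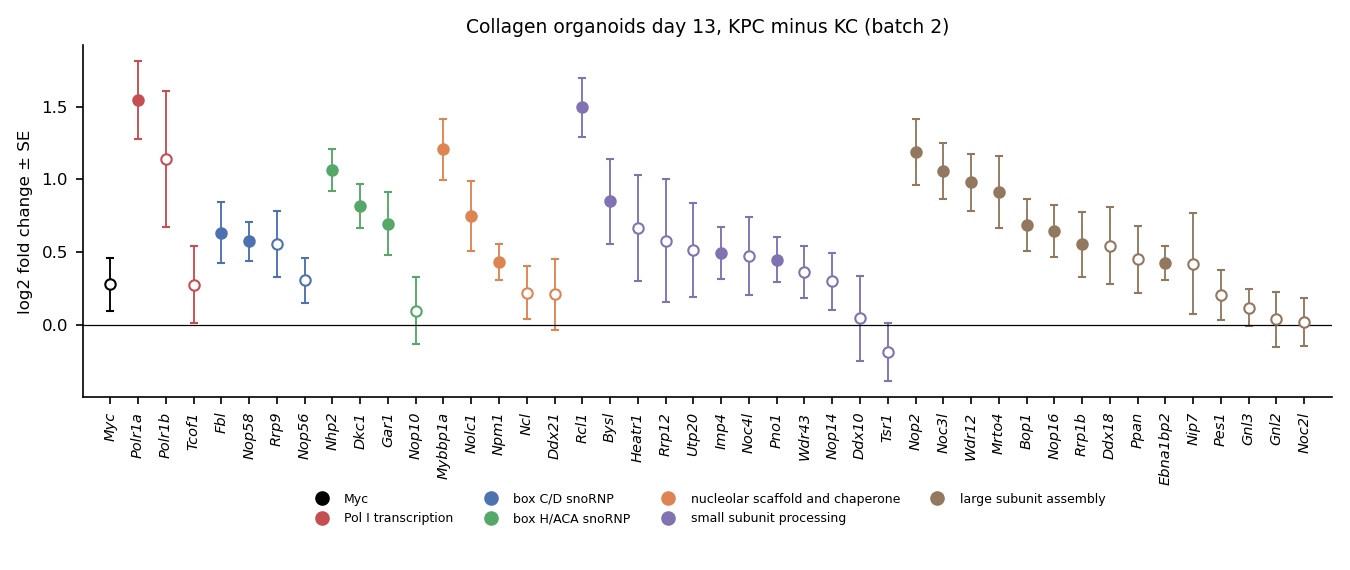
Log2 fold change of each of the 44 genes in KPC (n = 3) against KC (n = 3) collagen organoids at day 13 of batch 2, with 1 SE, ordered by role. Filled points passed the test (adjusted p under 0.1), open points did not. Polr1a (1.54) is highest, and Myc (0.28) is not called.

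Polr1a showed the highest difference, at 31.1, 35.1 and 26.2 CPM in KPC and 13.8, 7.63 and 9.94 CPM in KC organoids (log2 fold change 1.54 ± 0.27 SE, adjusted p = 0.000186). Every KPC library lay above all libraries of the other 5 groups except day 7 replicate 3, at 28.4 CPM. Rcl1 was at 27.9, 29.2 and 28.3 against 7.899, 9.71 and 12.6 CPM (1.49 ± 0.20 SE, adjusted p = 8.88e-06) and Mybbp1a at 106, 80.3 and 81.9 against 40.2, 28.4 and 47.03 CPM (1.21 ± 0.21 SE, adjusted p = 0.000196). These 3 genes did not overlap between the genotypes. Nop2 (1.19), Nhp2 (1.06) and Noc3l (1.06) were called too, Noc3l at 40.6, 33.9 and 38.8 CPM against 15.8, 19.4 and 19.2 CPM and with no library of batch 1 above 18.6 CPM. Some of the genes that differed between day 7 and day 13 did not pass the test between the genotypes, such as Rrp12 (0.58 ± 0.42 SE, adjusted p = 0.415), Ncl (0.22 ± 0.18 SE, adjusted p = 0.477) and Gnl3 (0.12 ± 0.13 SE, adjusted p = 0.612). The comparisons share no libraries, and a difference between them was not tested.

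Around these genes, 16 of 94 other ribosome biogenesis genes were higher and 1 lower in KPC (median 0.24), with Nol8 (0.99 ± 0.28 SE) and Wdr18 (0.93 ± 0.15 SE) highest and Nop53 (−0.39 ± 0.14 SE) lower. In this comparison 9.57% of all tested genes were called higher and 10.4% lower. Other RNA polymerase I genes had 1 higher, Polr1e (1.0 ± 0.37 SE), and 1 lower of 13, the termination factor Ttf1 (−0.81 ± 0.24 SE). Ribosomal protein genes had 2 higher and none lower of 78, Rplp0 and Rps2. The other Myc targets had 18 higher and 2 lower of 48, Ldha (−0.71 ± 0.14 SE) and Slc3a2 (−0.74 ± 0.15 SE) being the lower ones, and Shmt1 (0.95 ± 0.35 SE) and Ccnd2 (0.92 ± 0.18 SE) the highest. In the network of Myc, 3 of 13 genes passed the test, 7.69% higher and 15.4% lower, which is near the shares of all tested genes. Mycn was higher in KPC, at 8.25, 4.16 and 6.82 CPM against 0.658, 1.39 and 1.32 CPM (at or below 3 counts per KC library). Mxi1 was lower, at 46.3, 26.2 and 33.1 against 86.9, 111 and 78.8 CPM (−1.39 ± 0.19 SE, adjusted p = 1.06e-05), and so was Fbxw7, at 45.1, 34.5 and 37.3 against 67.8, 77.7 and 66.2 CPM (−0.86 ± 0.19 SE, adjusted p = 0.00301). Mxd1, Mxd4 and Mnt were not called, with log2 fold changes of −0.55, 0.34 and −0.26.

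KC collagen organoids of day 13 were present in both batches, and the 44 genes differed between the batches in both directions. Whether the batches also differed in culture is not given in the sources used here. In batch 2, 8 of the 44 were higher and 14 lower than in batch 1, where 19.3% and 18.1% of all genes were called, with a median log2 fold change of −0.09 against −0.05 over all genes. The higher genes were led by Ddx10 (1.08 ± 0.28 SE, adjusted p = 0.00398), Ncl (0.93 ± 0.16 SE, adjusted p = 8.06e-05) and Ddx21 (0.77 ± 0.22 SE, adjusted p = 0.00914). Ncl was at 556, 729 and 684 CPM in batch 2 and 421, 321, 341, 339.6 and 301 CPM in batch 1. Ddx10 was at 32.9, 42.99 and 43.1 against 27.7, 20.97, 21.4, 14.7 and 8.36 CPM and Ddx21 at 94.8, 103 and 92.7 against 69.6, 50.5, 55.2, 62.3 and 45.96 CPM. None of these 3 genes overlapped between the batches. Fbl had the lowest log2 fold change, with 23.04, 22.9 and 21.2 CPM in batch 2 and 60.8, 54.8, 54.7, 48.5 and 43.9 CPM in batch 1 (−1.23 ± 0.18 SE, adjusted p = 1.40e-05). Polr1b, at 0.658, 4.16 and 3.31 CPM in batch 2 (−1.2 ± 0.42 SE, adjusted p = 0.0302) and Myc (−1.06 ± 0.16 SE, adjusted p = 2.08e-05) followed, and the call of Polr1b was lost without batch 2 replicate 1, which had 1 count (adjusted p = 0.24). The genes of 1 particle did not move together here: of the box C/D genes Fbl was lower while Nop56 (0.68) and Nop58 (0.39) were higher. With library size as the only scaling the split was 5 higher and 16 lower. Other values moved with the batch. Of 17 proliferation markers 2 were higher and 8 lower in batch 2, with sums of 639.8 to 684 against 645 to 953 CPM. Mitochondrially encoded genes summed to 57925 to 65443 CPM in batch 2 and 28635 to 45115 CPM in batch 1, without overlap. Of 7 epithelial markers Epcam (0.86 ± 0.19 SE), Krt19 (0.67 ± 0.15 SE) and Krt18 (0.29 ± 0.12 SE) were higher and Sox9 (−0.62 ± 0.25 SE) lower, and of 4 fibroblast markers Col3a1 was lower (−1.01 ± 0.39 SE). The part of these in the result was not tested. Orders of levels over all 6 groups cross the batches and include such differences.

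Gnl2 and Tsr1 passed the test in none of the 6 comparisons, although most of these genes did in several. Gnl2 stayed between 30.4 and 50.8 CPM over the 23 libraries and Tsr1 between 17.1 and 44.4 CPM. The widest range of group means was that of Rrp12, with a ratio of 4.99 between the highest and the lowest group. Within batch 1, 38 of the 44 genes had their highest mean at day 7 and 32 their lowest in collagen at day 13, while the remaining genes with the highest mean in 2D cells were Myc, Nop10, Ddx10, Nop16 and Nip7. The matching shares of all tested genes were not counted, so these counts do not set the 44 genes apart.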

How the data were processed

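RNA was extracted with a column kit, and barcoded 3′-end libraries with unique molecular identifiers were made from oligo-dT primed cDNA. Alignment by the authors used GRCm38 and a Drop-seq pipeline, and they deposited raw counts of unique molecules per gene, which were used as they stand. Libraries were grouped by their labels, and all 23 columns were mapped. The alleles other than Cre that set the genotypes apart are not reported here.

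From the counts, 1 model with 6 groups was fitted with edgeR (version 4.0.16, R version 4.3.3) after filterByExpr and TMM normalisation. The quasi-likelihood F-test was run across all 11144 tested genes for 6 comparisons, and genes were called at a Benjamini-Hochberg adjusted p below 0.1. All p-values are two-sided. The same batch 1 day 13 collagen libraries serve as reference in 4 comparisons, and day 7 and the batch 2 KC libraries each enter 2. CPM use the TMM factors, log2 CPM a prior count of 2. Fold changes and their standard errors (SE) are on the log2 scale. Each edgeR SE was derived from the test, as the absolute log2 fold change divided by the square root of the F statistic. It need not match the p-value exactly. The procedure was run on simulated counts in which 200 genes were changed in both directions in the day 7 libraries, far fewer than were called in the data. Its outcome is not given, and no call rests on it. The simulation held no batch difference and no split of the 2D libraries, so it does not bear on these. Positions are from GENCODE M21 on GRCm38.

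The 44 genes, the other gene lists and the comparisons were chosen with earlier results of these data known. Per-library values are given for Myc and for the up to 3 called genes furthest in each direction of each comparison, and other genes by their log2 fold change, a few with levels. Those added to show a role group were chosen after their values were seen. Alternatives were DESeq2 (version 1.42.0), other size factors, filters, thresholds and prior counts, 2 groups alone, a replicate block, both batches together, and each library left out. The precision is set by the counting error of 1221451 to 2471058 counts per library and by the 3 to 6 libraries of a group. A floor of 3 counts covers counting error only.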

Additional observations from a re-analysis of the deposited data

Results flagged for a closer look

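Of 92 sets of values of a gene or score within a group of 4 to 10 libraries, 2 held a library that lay far from the others, where chance alone is expected to flag about 1 in 20. Nop14 was at 18.6 CPM in 2D replicate 3 and at 41.5 to 48.04 CPM in the other 5 2D libraries. Noc4l, whose product forms a complex with that of Nop14, was at 14.7 CPM in the same library and at 27.8 to 35.3 CPM in the others. These levels rest on 19 and 15 counts.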

How the results depend on the processing

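For Myc and the up to 3 called genes furthest in each direction of a comparison, no call changed direction under any alternative. Changes of sign in values that were not called, and in the other genes, were not followed. With size factors by median of ratios, with 2 groups fitted alone and with the DESeq2 Wald test every count stayed within 1.5 times the one reported. The single call below 0 between day 7 and day 13, that of Myc, was gone (0 genes) with library size as the only scaling, at an adjusted p below 0.05 and with both batches of day 13 collagen, and the count was 0 to 1 with 1 library left out. Between Matrigel and collagen, 1 gene in place of 2 was higher with library size alone, without a filter, with at least 10 counts in every library and at 0.05, and 1 to 3 were with 1 library left out. Library size alone also gave 14 genes higher in 2D cells than at day 13 (median 0.28), a median of −0.67 for 2D cells against day 7, 5 genes higher in batch 2 with a median of −0.22, and mean z scores of −0.40 for day 13 collagen and −0.0905 for Matrigel. That scaling moved the median log2 fold change of all tested genes from near 0 to −0.14 and −0.20 for 2D cells against day 7 and day 13, to 0.13 for KPC and to −0.18 for batch 2. The 2D replicate sets were compared after seeing the data. Replicates 1 to 3 gave 4 genes higher than day 7 (median −0.68), and 18 higher and 1 lower than day 13 (median 0.27). Replicates 4 to 6 gave a median of −0.34 against day 7. The median of KPC against KC ran from 0.40 to 0.56 with 1 library left out. The causes were not tested. Genes near the floor of 3 counts, such as Polr1b, Rrp12 and Mycn, are limited by depth.

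Replicate numbers are shared by the groups, but same-numbered libraries did not deviate together (correlations from −0.12 to 0.19), so the numbers do not pair them. With the replicate block, 4 genes in place of 2 were higher in 2D cells than at day 7, with a median of −0.65, and no other count moved by over 1.5 times.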
